A study of Mus musculus with 96 samples.

Results

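Osteopontin, the secreted phosphoprotein encoded by Spp1, and 9 genes of the perineuronal net were followed through single neurons of the mouse lateral superior olive (LSO). The 10 genes were Spp1, the lecticans Acan, Bcan, Ncan and Vcan, the link proteins Hapln1 and Hapln4, the cross-linker Tnr, the hyaluronan synthase Has3 and the receptor phosphatase Ptprz1. They are 10 of the 38887 rows of the expression table, found by their Ensembl identifiers in Gencode vM21, and all 10 were present. Spp1 was chosen by its measured TPM, which differed between the neuron classes in these libraries, so its values are a description. The cells came from acute coronal brainstem slices of C57BL/6 J mice of both sexes in the second postnatal week, around hearing onset, with no transgene and no treatment in any group. After whole-cell recording the cytoplasm was drawn into the patch pipette, and each pipette gave 1 library. The labels divide the neurons by firing pattern into Onset and Sustained principal neurons (together pLSOs), which ascend to the midbrain, and lateral olivocochlear neurons (LOCs, with delayed firing), which project to the cochlea. Negative controls were pipettes brought into contact with the tissue without sampling a cell, and their libraries were made by the same steps. The values rest on 41 Onset and 11 Sustained neurons, thus 52 pLSOs, on 28 LOCs and on 8 negative controls. A further 6 neurons and 2 negative controls were left out because a comparison with tables of the study had put their identity in doubt. The labels name no animal, so each class counts as 1 sample, no test was run between classes, and spreads are those between neurons.

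A perineuronal net is a lattice of extracellular matrix that encloses the soma and proximal dendrites of certain neurons, among them many fast-firing neurons of the auditory brainstem. Its backbone is hyaluronan, which synthases extrude through the plasma membrane. Lecticans, which are chondroitin sulphate proteoglycans, bind the hyaluronan, link proteins lock this binding, and tenascin-R joins the lecticans to each other. Osteopontin belongs to the SIBLING family of acidic, integrin-binding phosphoproteins. It is best known from bone and from immune cells, and it is also made by some large brainstem neurons.

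Detection means a listed value of at least 1 TPM (transcripts scaled to a fixed total per library). The deposited TPM are not on one scale for all genes. The whole numbers of each library are multiples of a step that stands for 1 read, and this step depended on the row of the table, not on the length of the gene. In the median neuron 1 read was worth 17.3 TPM for Ncan, 10.4 TPM for Bcan, 1.85 TPM for Hapln1, 0.200 TPM for Spp1 and 0.0276 TPM for Ptprz1. TPM are therefore compared below for the same gene between classes, and genes are ranked only on values rescaled to their own length. The number of reads behind a value was estimated from the step. The pLSOs had a median of 2560.5 detected genes (1333 to 6276) and about 1.88e+06 reads, and the LOCs had 2394 genes (1175 to 4408) and about 1.86e+06 reads. These read totals are estimates, and they lie above the median number of mapped reads that the study reports for its neurons. Read counts below are therefore approximate and may be too high. The negative controls had 821 genes (285 to 1271) and about 110878 reads. A TPM value in a negative control thus rests on far fewer reads than the same value in a neuron. The class labels were checked with marker lists. Of 6 pLSO markers 5 were detected in a share of pLSOs at least 25 percentage points above that of LOCs, and 5 of 6 LOC markers were so in the other direction, although these lists were chosen with results of these libraries known.

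The promoters of the pair of members that differed most between the classes, Spp1 and Hapln1, are shown with that of Acan, the lectican that was detected in pLSOs and in no LOC. Each line gives the 250 bases before the first RefSeq start on GRCm38.p6, plus strand, in lower case. Capitals mark matches, on both strands, to the core letters of known motifs. These were TATAAA for the box bound by the basal machinery, GGGCGG for the box bound by SP factors of many housekeeping promoters, and TGANTCA for the site of AP-1 factors. Also searched were TGCTGA, as the partial site of MAF factors, and AGGTCA as the partial site of ROR receptors. The windows are chr5:104434861-104435110 for Spp1, chr13:89540386-89540635 for Hapln1 and chr7:79052976-79053225 for Acan. The Hapln1 window lies past the Gencode vM21 start of the gene (89539796), so it describes the RefSeq start only. A second RefSeq start of Spp1, with its window at 104435942-104436191, is not shown and held none of the capitalised motifs.
Spp1: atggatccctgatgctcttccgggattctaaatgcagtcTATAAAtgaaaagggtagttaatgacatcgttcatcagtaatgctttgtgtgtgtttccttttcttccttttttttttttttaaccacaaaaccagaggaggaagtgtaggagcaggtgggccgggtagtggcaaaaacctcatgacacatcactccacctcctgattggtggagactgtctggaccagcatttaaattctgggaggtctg
Hapln1: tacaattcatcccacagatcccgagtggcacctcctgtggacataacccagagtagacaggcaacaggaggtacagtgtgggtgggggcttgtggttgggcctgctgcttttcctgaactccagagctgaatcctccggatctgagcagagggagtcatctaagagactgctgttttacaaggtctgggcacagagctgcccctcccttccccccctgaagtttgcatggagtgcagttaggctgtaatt
Acan: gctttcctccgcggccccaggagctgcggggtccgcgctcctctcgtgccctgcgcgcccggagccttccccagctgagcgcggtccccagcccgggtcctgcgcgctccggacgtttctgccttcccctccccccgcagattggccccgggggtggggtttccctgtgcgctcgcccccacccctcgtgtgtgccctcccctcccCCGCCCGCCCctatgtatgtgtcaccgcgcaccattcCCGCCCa
The Spp1 window held TATAAA 211 bases before the start and the Hapln1 window held none of the searched letters. The Acan window held GGGCGG on the minus strand at 3 places, a pair of which overlap. GGGCGG was found in 5 of 8 members with a promoter in the table (Acan, Bcan, Ncan, Vcan and Ptprz1) and in 32.9% of 27025 promoters of the same length. TATAAA was present in Spp1 and Ncan and in 12.97% of all promoters. TGCTGA was found in Tnr and in 15.8% of all promoters, and neither TGANTCA (6.87% of all) nor AGGTCA (13.8% of all) in a member. The E-box letters CANNTG, searched but not capitalised, were in 4 members and in 66.0% of all promoters. The share of G and C was 43.6% for Spp1, 54.4% for Hapln1 and 74.4% for Acan, where the median of all promoters was 52% (interquartile range 44.8% to 60.8%). These matches describe letters in a window and no binding was measured.

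Spp1 (ENSMUSG00000029304, chromosome 5, 104435118 to 104441050, plus strand, GRCm38) separated the classes more than any other member. It was detected in 50 of 52 pLSOs (96.2%, exact Clopper-Pearson 95% interval 86.8% to 99.5%) and in 1 of 28 LOCs (3.57%, 0.0904% to 18.3%), where it was listed at 1 TPM. Intervals here and below cover counting error only. Its level was 306 ± 249 TPM in pLSOs (SD, n = 52), with a lowest value of 0, a median of 273 and a highest value of 935 TPM. The LOC mean was 0.0357 ± 0.189 TPM (SD, n = 28). In 48 of the 52 pLSOs the value was above that of the highest LOC, so the classes overlapped in only a few neurons. On the log2(TPM + 1) scale the means differed by 7.20. By estimated reads, 47 pLSOs and 0 LOCs held 20 or more Spp1 reads, and the median pLSO held about 1110 reads.

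Spp1 did not fall evenly over the pLSOs. A total of 46 pLSOs lay between 30 and 935 TPM and the other 6 at 4 TPM or less. Of these 6 neurons, 4 were Onset neurons (cell_23 and cell_28 at 0, cell_13 at 1 and cell_15 at 4 TPM) and 2 were Sustained neurons (cell_47 at 1 and cell_45 at 3 TPM). They were not uniformly shallow, since their number of detected genes ranged from 1872 in cell_15 to 6276 in cell_45, the highest of all pLSOs. Ucn and Isl1, markers of LOCs, were at 0 in all 6, and Calca was at 0 in 4 of them, at 5 TPM in cell_15 and at 43 TPM in cell_47. Of the pLSO markers, Kcnh7, a potassium channel gene, was listed at 1 TPM in cell_13 and cell_15, the value also found in 1 LOC. In the other 4 it was listed at 8 to 52 TPM. Slc17a6, the vesicular glutamate transporter, was at 0 in 5 of the 6 and at 208 TPM in cell_28, and the nuclear receptor gene Rorb was at 0 in cell_15 and cell_47. Lpgat1, Tenm2, Gata3 and Slc5a7, also in the marker lists, were not looked up in these neurons. Ptprd, which is not in the lists, was at 12 TPM in cell_23, 18 in cell_15 and 22 in both cell_13 and cell_45. It was at 78 TPM in cell_47 and 261 in cell_28. The median of all pLSOs was 114.5 TPM, and LOCs had a mean of 11.6 and a highest value of 122 TPM. cell_28, with no Spp1, held the most Acan of all neurons.

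Spp1 also occurred in 4 of 8 negative controls (50%, 15.7% to 84.3%), at 32, 91, 115 and 229 TPM, and the other 4 were at 0. These values stood for about 1.09, 50.4, 21.9 and 2.20 reads, respectively. The highest control value was reached or passed by 28 of 52 pLSOs. In estimated reads, the highest control used was at about 50.4 and the median pLSO at about 1110, but the left-out control NC5 held about 1208 reads. Of the 28 LOCs, sampled in the same way, 27 were at 0. The part of slice RNA in the Spp1 of a pLSO was not tested. Of the left-out libraries, negative control NC5 held 782 TPM and NC6 75 TPM (about 149 reads). The 4 left-out pLSOs held 0, 0, 0 and 1 TPM, and both left-out LOCs were at 1 TPM or more (1 and 3 TPM). Leaving these neurons out thus widened the difference between the classes. With all labelled libraries kept, the share difference between pLSOs and LOCs was 81.1 percentage points, against 92.6 without the doubtful ones.

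**Figure D1:**
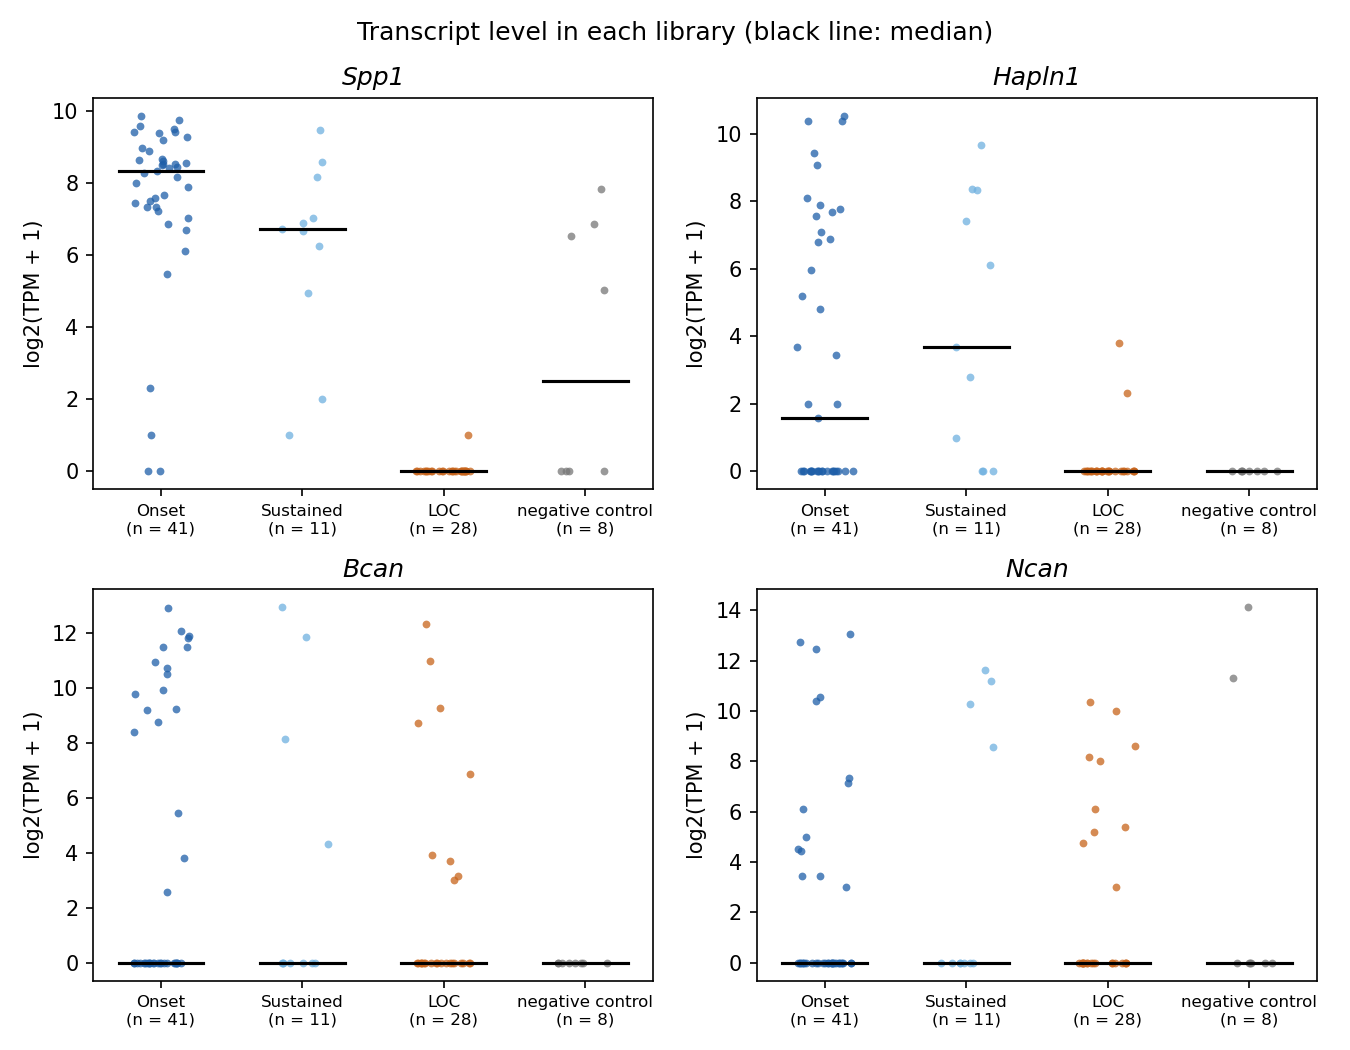
Level of Spp1, Hapln1, Bcan and Ncan on the log2(TPM + 1) scale (vertical axes) in each library, by firing pattern and in negative controls (horizontal axes), where each point is 1 library and the black line the median. Spp1 lies near the bottom in 28 LOCs and high in most pLSOs, Hapln1 spreads from 0 to 1481 TPM within the pLSOs, and Bcan and Ncan have high and zero values in each neuron type.

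Hapln1 (ENSMUSG00000021613, chromosome 13, 89539796 to 89611652, plus strand) encodes the link protein that locks lecticans to hyaluronan. It was detected in 29 of 52 pLSOs (55.8%, 41.3% to 69.5%) and in 2 of 28 LOCs (7.14%, 0.877% to 23.5%), and in 0 of 8 negative controls, which allows a share of up to 37.5%. Its level in pLSOs was 168 ± 352 TPM (SD, n = 52), with a lowest value of 0, a median of 3 and a highest value of 1481 TPM. The 2 LOCs held 4 and 13 TPM, which stood for about 1.05 and 4.02 reads. The pLSO values thus ranged from 0 through low and middle levels up to 1481 TPM, whereas no LOC was above 13 TPM. The difference was 48.6 percentage points and 3.35 on the log2(TPM + 1) scale. At 20 or more reads Hapln1 was present in 18 pLSOs and 0 LOCs.

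Among the 10 members, Spp1 and Hapln1 passed the share rule of 25 percentage points, both higher in pLSOs, and none passed it toward LOCs. Of 10319 genes detected in at least 5% of neurons, 3.06% passed the rule toward pLSOs and 1.8% toward LOCs. By the rule of 1 on the log2(TPM + 1) scale, 3 members (Spp1, Hapln1 and Bcan) were higher in pLSOs and none in LOCs, against 6.99% and 4.68% of all genes. Has3 did not pass the 5% filter and the other 9 members did. The members were chosen with these values known, and nothing is read from the counts.

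Hapln4 (ENSMUSG00000007594, chromosome 8, 70083457 to 70090862, plus strand), another link protein of brain nets, did not separate the classes. It was detected in 11 of 52 pLSOs (21.2%, 11.1% to 34.7%), in 5 of 28 LOCs (17.9%, 6.06% to 36.9%) and in 2 of 8 negative controls, at 496 and 5443 TPM or about 1.00 and 24.0 reads. The pLSO mean was 171 ± 675 TPM (SD, n = 52) and the LOC mean 356 ± 1845 TPM (SD, n = 28). The LOC mean came from 1 neuron, cell_70, at 9770 TPM, since without it the LOC mean was 7.30 TPM. Without their highest neuron the pLSOs had a mean of 97.6 TPM, so the order of the class means depended on single neurons.

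**Figure D2:**
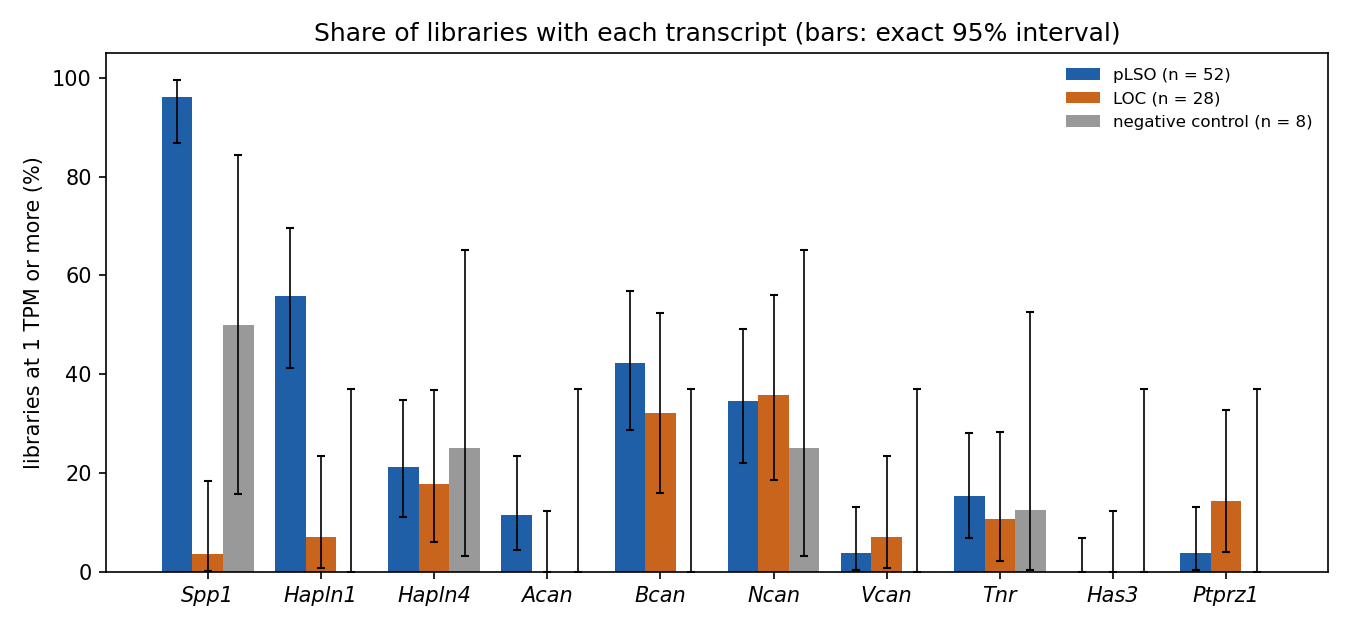
Share of libraries at 1 TPM or more (vertical axis, percent) for each of the 10 genes (horizontal axis) in 52 pLSOs, 28 LOCs and 8 negative controls, with exact 95% intervals as error bars. Spp1 at 96.2% and Hapln1 at 55.8% stand far above their LOC shares of 3.57% and 7.14%, and for the other 8 genes the intervals of the neuron classes overlap.

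Acan (ENSMUSG00000030607, chromosome 7, 79053483 to 79115099, plus strand) encodes aggrecan, the lectican most closely tied to mature nets. It was detected in 6 of 52 pLSOs (11.5%, 4.35% to 23.4%), in 0 of 28 LOCs, which allows a share of up to 10.7%, and in 0 of 8 negative controls. The 6 neurons were cell_28 at 71, cell_4 at 22, cell_34 at 9, cell_38 at 2, cell_22 at 1 and cell_46 at 1 TPM. Only cell_28 and cell_4 held 20 or more reads (about 325 and 224). The intervals of the class shares overlap.

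Bcan (ENSMUSG00000004892, chromosome 3, 87987531 to 88000230, minus strand) encodes brevican, a brain-specific lectican that surrounds synapses and is made by neurons and glia. It was detected in 22 of 52 pLSOs (42.3%, 28.7% to 56.8%), in 9 of 28 LOCs (32.1%, 15.9% to 52.4%) and in 0 of 8 negative controls. The pLSO mean was 875 ± 1792 TPM (SD, n = 52; median 0, highest 7798 TPM). The LOC mean was 298 ± 1029 TPM (SD, n = 28; median 0, highest 5146 TPM). The log2 difference of 1.79 passed the fold rule while the share difference of 10.2 points did not pass the share rule. Of the neurons with Bcan, 4 pLSOs and 4 LOCs rested on 1 or 2 reads. At 20 or more reads Bcan was present in 18 of 52 pLSOs (34.6%) and 5 of 28 LOCs (17.9%). Both classes held neurons without Bcan and neurons with high values.

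Ncan (ENSMUSG00000002341, chromosome 8, 70093085 to 70120873, minus strand) encodes neurocan, a lectican that is abundant in the developing brain. It was found in near equal shares, 18 of 52 pLSOs (34.6%, 21.97% to 49.1%) and 10 of 28 LOCs (35.7%, 18.6% to 55.9%). The mean of pLSOs was 608 ± 1746 TPM (SD, n = 52; median 0, highest 8584 TPM). That of LOCs was 123 ± 314 TPM (SD, n = 28; median 0, highest 1315 TPM). Of 8 negative controls 2 held Ncan, at 2535 and 18002 TPM, which stood for about 1.00 and 2.00 reads. At 20 or more reads the shares were 15.4% of pLSOs, 14.3% of LOCs and 0 of 8 negative controls. The highest levels of neurons were in pLSOs, while the share of pLSOs minus that of LOCs was -1.10 percentage points at 1 TPM and 1.10 at 20 reads.

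Vcan (ENSMUSG00000021614, chromosome 13, 89655312 to 89742509, minus strand) encodes versican, a lectican of the loose matrix and of nodes of Ranvier. It was listed in 2 of 52 pLSOs, at 8 and 11 TPM, and in 2 of 28 LOCs, at 6 and 12 TPM, and in no negative control. None of these 4 neurons held 20 reads. Tnr (ENSMUSG00000015829, chromosome 1, 159523769 to 159931729, plus strand) was detected in 8 of 52 pLSOs (15.4%, 6.88% to 28.1%), at 3 to 547 TPM, and in 3 of 28 LOCs (10.7%, 2.27% to 28.2%), at 4, 10 and 27 TPM. In 4 pLSOs and 0 LOCs it reached 20 reads, and 1 negative control held 38 TPM from about 0.993 reads. These intervals overlap widely.

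Has3 (ENSMUSG00000031910, chromosome 8, 106870242 to 106884566, plus strand), a hyaluronan synthase, was at 0 in every neuron and negative control used. For 0 of 52 pLSOs this allows a share of up to 5.77%, and for 0 of 28 LOCs of up to 10.7%. In the median neuron about 6.83 reads were needed for 1 TPM at this row, so a trace of Has3 would not be listed. Ptprz1 (ENSMUSG00000068748, chromosome 6, 22875502 to 23052916, plus strand) encodes a receptor phosphatase whose shed form, phosphacan, is a net proteoglycan made mostly by glia. It had the widest share difference toward LOCs of the 10 genes, at 4 of 28 (14.3%, 4.03% to 32.7%; 2, 5, 7 and 12 TPM) against 2 of 52 pLSOs (3.85%, 0.469% to 13.2%; 1 and 4 TPM), with overlapping intervals. In the median neuron 1 TPM of Ptprz1 stood for about 36.2 reads, so its detection limit was the highest of the 10.

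On values set to the length of each gene and an equal library total, Spp1 stood alone among the 10 genes in pLSOs. Its rescaled level was 1837 ± 1888 (SD, n = 52) with an interquartile range of 424 to 2730, all above the upper quartile of each other member. Next came Bcan at 36.1 ± 69.4, Hapln1 at 19.8 ± 42.96, Ncan at 12.5 ± 40.9 and Hapln4 at 12.4 ± 56.7 rescaled TPM, and the spread of each covers the mean of its neighbours in this order. Acan followed at 2.64 ± 13.9, Tnr at 0.784 ± 3.05, Ptprz1 at 0.405 ± 2.31 and Vcan at 0.0187 ± 0.0996 rescaled TPM, and Has3 was at 0. The order of these means rests on few neurons with high values, since the median was 0 for each member other than Spp1 and Hapln1. It also rests on the inferred step for Spp1, Acan, Vcan, Hapln1, Has3 and Ptprz1.

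Between the firing types of pLSOs, Spp1 had a higher level in Onset neurons. The Onset mean was 341 ± 249 TPM (SD, n = 41; lowest 0, median 321, highest 935 TPM), and the Sustained mean was 177 ± 212 TPM (SD, n = 11; lowest 1, median 106, highest 710 TPM). The log2 difference was 1.36 and the ranges overlapped almost fully. Spp1 was detected in 39 of 41 Onset and 11 of 11 Sustained neurons. Hapln4 was detected in 6 of 41 Onset neurons (14.6%, 5.57% to 29.2%) and 5 of 11 Sustained neurons (45.5%, 16.7% to 76.6%). It was the 1 member past the share rule in this comparison, where 1.57% of all genes passed toward Onset and 6.43% toward Sustained neurons. At 20 or more reads Hapln4 was present in 2 and 3 neurons, a difference (Onset minus Sustained) of -22.4 points that did not pass the rule. Hapln1 was detected in 21 of 41 Onset neurons (51.2%) and 8 of 11 Sustained neurons (72.7%, 39.03% to 93.98%), with means of 171 and 156 TPM. The log2 difference (Onset minus Sustained) was -1.26 for Ncan and -2.27 for Hapln4. For Ncan the shares (34.1% and 36.4%) and the means (597 and 651 TPM) of Onset and Sustained neurons were close. The share of all genes past the log2 rule was not computed for this comparison, so nothing is read from which members reached it.

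**Figure D3:**
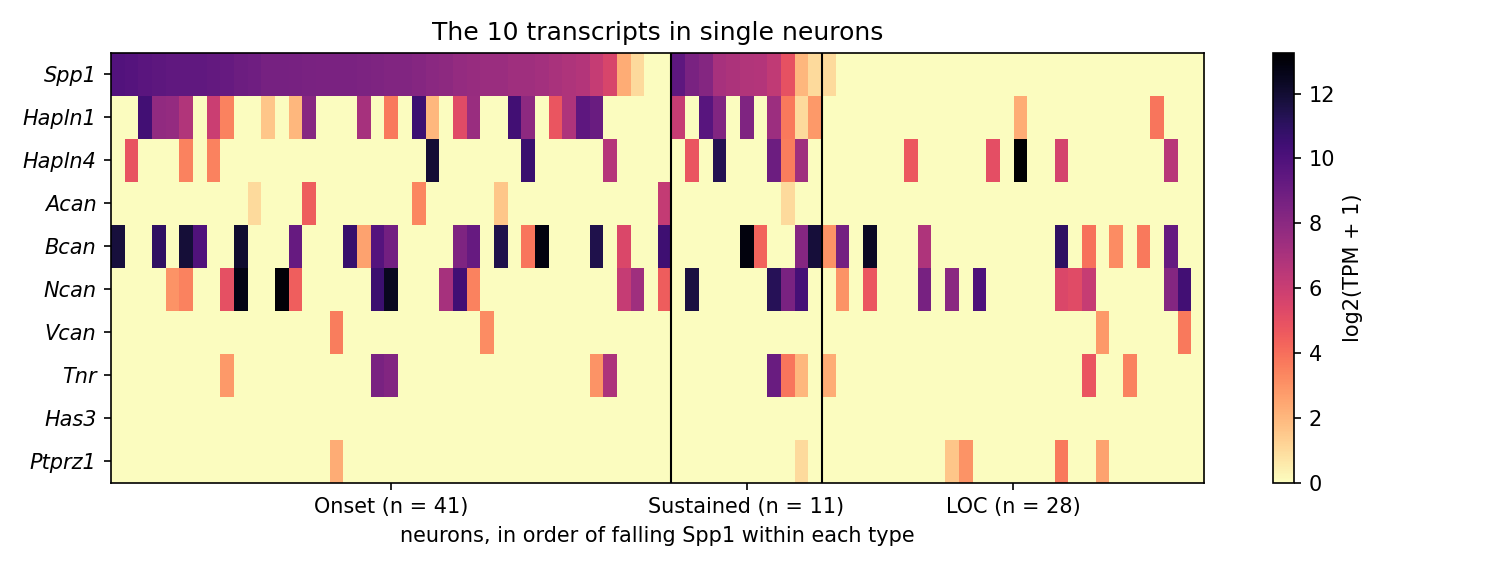
Level of the 10 genes (rows) in the 80 neurons (columns), shown as log2(TPM + 1) in colour from pale (0) to black, with neurons sorted by falling Spp1 within Onset, Sustained and LOC. Spp1 fills the pLSO columns, Hapln1 is scattered among them (correlation with Spp1 0.02), and Bcan and Ncan appear in columns of all 3 types.

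Of the 9 members other than Spp1, a pLSO held a median of 2 (range 0 to 6; mean 1.88 ± 1.25, SD, n = 52), an LOC a median of 1 (range 0 to 4; mean 1.25 ± 1.08, SD, n = 28) and a negative control a median of 1 (range 0 to 1). At least 3 of them were present in 13 of 52 pLSOs (25.0%) and 3 of 28 LOCs (10.7%), and none in 4 pLSOs and 8 LOCs. The number moved with depth, since its Spearman correlation with the number of detected genes was 0.43 over 52 pLSOs and 0.40 over 28 LOCs. The highest number, 6, belonged to cell_45, which also had the most detected genes. How far depth sets these numbers was not tested.

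The most frequent pair of net genes in pLSOs was Hapln1 with Bcan, in 12 neurons, or 41.4% of those with Hapln1 and 54.5% of those with Bcan. The product of the separate shares of these genes gives 12.3 neurons, so this count follows from how frequent each gene was. Bcan and Ncan were together in 10 pLSOs (45.5% and 55.6%) and in 6 LOCs (66.7% and 60%), where the product of shares gives 7.62 and 3.21 neurons. Of the 6 pLSOs with Acan, 3 held Hapln1 and 2 held Bcan. The highest correlation between levels of net genes across pLSOs that were detected together in 6 or more was that of Ncan with Tnr, at 0.41, with 6 neurons holding both. The Spearman correlation of Spp1 was 0.02 with Hapln1, -0.04 with Bcan and -0.05 with Ncan (n = 52 neurons), and that of Hapln1 was -0.08 with Bcan.

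Lectican and link protein genes lie in pairs on the genome. The counts of pLSOs that held both neighbours are too small to read an association. Vcan lies 43.7 kb from Hapln1 on chromosome 13, and no pLSO held both. Bcan lies 21.5 kb from Hapln2, which was detected in 2 pLSOs, 1 of them with Bcan. Ncan and Hapln4 lie 2.22 kb apart on opposite strands, and 5 pLSOs held both. Acan and Hapln3 end 2 bases apart on opposite strands, and none of the 6 pLSOs with Acan was among the 2 with Hapln3. The protocol does not mark strand, and reads running past the end of a gene were not tested. Around Spp1, the SIBLING genes Mepe, Ibsp, Dmp1 and Dspp, which serve bone and tooth mineral, lie 96.5 to 255 kb upstream and were at 0 in all 88 libraries used. Pkd2, 18.4 kb downstream, was detected in 3 of 52 pLSOs. Spp1 was thus the 1 gene of its family listed in these neurons.

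The wider pathway was read from 13 lists with 111 genes other than the 10 members, of which 43 were detected in at least 5% of neurons. Of these 43 genes, 4 passed the share rule toward pLSOs and 2 toward LOCs, beside 3.06% and 1.8% of all genes. By the log2 rule 6 and 2 did so, beside 6.99% and 4.68% of all genes. Their median difference was 2.47 percentage points, beside 2.20 for all genes tested. Among receptors of net proteoglycans, 2 of the tested genes (Ptprd and Nfasc) passed the share rule, both toward pLSOs. Ptprd, a receptor phosphatase of the family that binds chondroitin sulphate, was detected in 52 of 52 pLSOs (mean 124 TPM) and 18 of 28 LOCs (mean 11.6 TPM), a log2 difference of 4.59. Nfasc, which encodes the neurofascins of the initial segment and nodes, was detected in 31 pLSOs and 9 LOCs, and its partner Nrcam in 34 and 12. Ptn, a growth factor that binds Ptprz1, went the other way, with 26 of 52 pLSOs (mean 8.90 TPM) and 22 of 28 LOCs (mean 21.5 TPM).

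Among 11 genes for receptors of osteopontin, 3 were tested and the difference lay toward pLSOs for a pair of integrin subunits that form a vitronectin and osteopontin receptor. Itgav was detected in 15 of 52 pLSOs (28.8%; mean 8.29 TPM) and in 0 of 28 LOCs, which allows a share of up to 10.7%, and it passed both rules. Itgb5 was detected in 12 pLSOs (mean 25.6 TPM) and 1 LOC and passed the log2 rule, at 1.11. Itgb1, a widely expressed beta subunit, was in 18 pLSOs and 8 LOCs and passed neither. Cd44, the hyaluronan receptor that also binds osteopontin, was at 0 in all 80 neurons. Fam20c, the kinase that phosphorylates osteopontin, was in 11 of 52 pLSOs and 6 of 28 LOCs, close to equal in share.

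**Figure D4:**
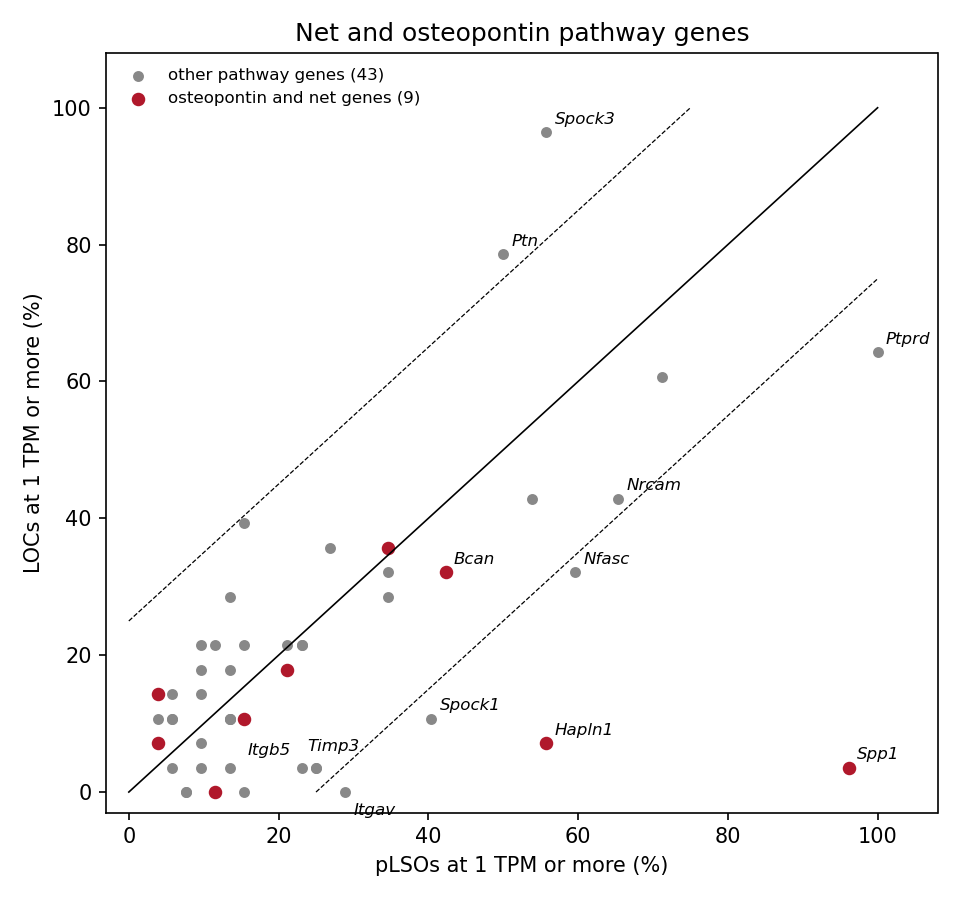
Share of pLSOs (horizontal axis, percent) against share of LOCs (vertical axis, percent) at 1 TPM or more for 9 members (red) and 43 other pathway genes (grey) that passed the 5% filter, with the line of equal shares and dashed lines at 25 percentage points. Spp1, Hapln1, Itgav, Spock1, Nfasc and Ptprd lie beyond the lower dashed line and Spock3 and Ptn beyond the upper one.

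In the lists of matrix enzymes and further proteoglycans, few genes differed. Timp3, an inhibitor of matrix metalloproteinases that is bound to matrix, was detected in 13 of 52 pLSOs (mean 119 TPM) and 1 of 28 LOCs and passed the log2 rule at 1.52. Of the 3 testican genes, Spock1 was in 21 of 52 pLSOs and 3 of 28 LOCs and passed the share rule only (log2 difference 0.77). Spock2 was in 8 pLSOs and 11 LOCs and passed neither rule, whereas Spock3 was in 29 pLSOs (mean 13.9 TPM) and 27 LOCs (mean 57.8 TPM), a log2 difference of -2.75. None of 5 tested genes of chondroitin sulphate synthesis passed a rule, and the most frequent, B3gat3, was in 7 pLSOs and 5 LOCs. Of 9 genes of hyaluronan turnover only Cemip2, a hyaluronidase, was tested, with 5 pLSOs and 5 LOCs. Nptxr, the receptor of neuronal pentraxins, was in 7 pLSOs and 8 LOCs.

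The genes most like Spp1 over the 80 neurons, by Spearman correlation of log2(TPM + 1) among 4799 genes detected in at least 20% of them, were Ldhb (0.70), Pvalb (0.67), Sparcl1 (0.67), Ptprd (0.66), Lpgat1 (0.59), Igsf3 (0.59), Tenm2 (0.57), Nefm (0.57), Maf (0.56) and Rorb (0.56). All 10 had a higher mean TPM in pLSOs than in LOCs, as Spp1 did by choice. Sparcl1, a secreted matrix protein related to the SIBLING genes, lies on the same chromosome 321 kb from Spp1 and was detected in 52 of 52 pLSOs and 21 of 28 LOCs. Hapln1 had the 43rd highest correlation (0.42). Within the 52 pLSOs the highest were the sodium channel gene Scn1a (0.55), Wtap (0.51), Opa1 (0.46), Psmd4 (0.46) and Hnrnpl (0.42), and Hapln1 was at 0.02. The genes most like Hapln1 within pLSOs were Ntan1 (0.46), Tagln3 (0.45) and Fmc1 (0.45). These neurons share libraries of differing depth, and with the number of detected genes held constant the values within pLSOs were 0.55 for Scn1a, 0.51 for Wtap, 0.50 for Opa1, 0.48 for Psmd4 and 0.45 for Hnrnpl.

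Across the 52 pLSOs the Spp1 level was lower in neurons of higher input resistance and slower membrane. The Spearman correlation was -0.45 with input resistance and -0.43 with the membrane time constant (n = 52), and -0.32 and -0.30 within the 41 Onset neurons alone. Onset neurons had a median input resistance of 41.7 MOhm and Sustained neurons of 88.8 MOhm, so firing type and these features moved together. Of the other features, the decay time constant of spontaneous inhibitory currents reached -0.40 (n = 51, Onset alone -0.36, n = 40), the sag amplitude -0.33 (Onset alone -0.36) and rheobase 0.33 (Onset alone 0.19). The remaining 11 of 16 features lay between -0.29 and 0.19. For Hapln1 all 16 lay between -0.14 and 0.30. These correlations describe neurons of an unknown number of animals and were not tested.

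**Figure D5:**
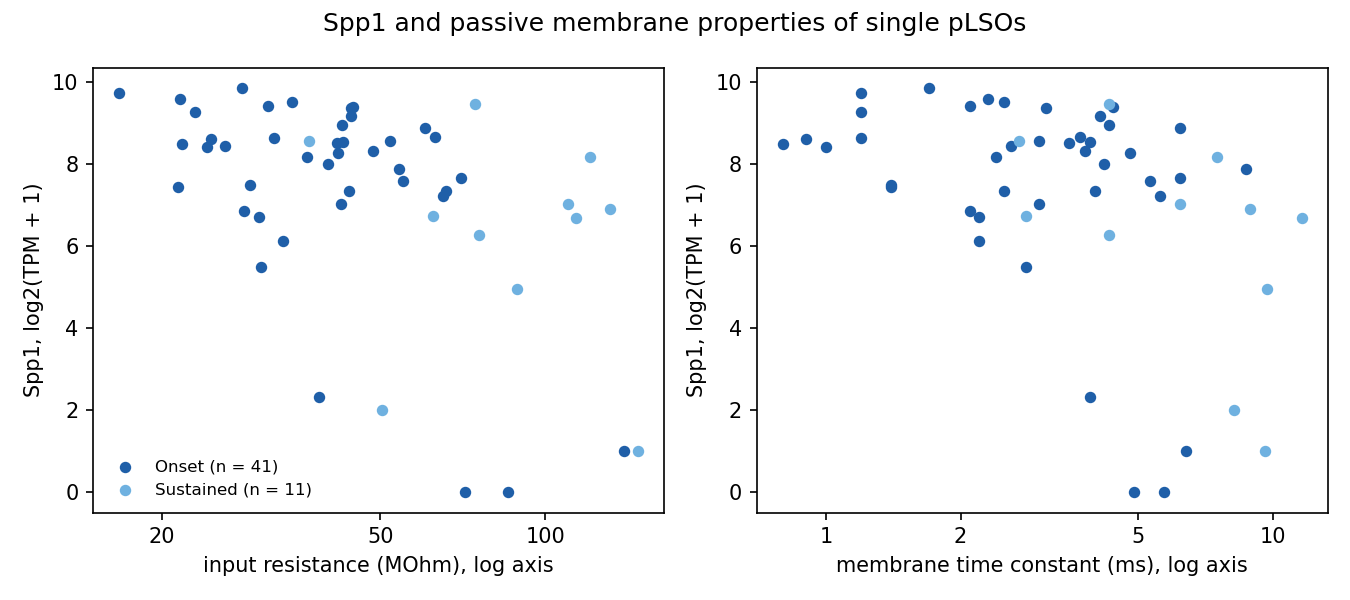
Spp1 on the log2(TPM + 1) scale (vertical axes) against input resistance and membrane time constant (horizontal axes, log scale) in 41 Onset and 11 Sustained neurons, where each point is 1 neuron. The Spearman correlations are -0.45 and -0.43, and the 6 neurons at 4 TPM or less have input resistances between 38.6 and 147.4 MOhm.

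Markers of other cells were present in the same libraries. Since TPM differ in scale between genes, sums over markers are given on the rescaled values. For 10 markers of microglia, which can express Spp1, the median sum was 151 in pLSOs (range 0 to 11775), 210 in LOCs (0 to 8858) and 165 in negative controls (0 to 1607). On the deposited TPM the order of the classes was the other way, with 150.5 in pLSOs and 130 in LOCs. Of the LOCs, 23 held such a marker and 1 held Spp1. Over the 52 pLSOs the correlation of Spp1 with the sum of TPM was -0.30, and the part of microglia in the Spp1 values was not tested. Astrocytes and oligodendrocyte precursors make lecticans, tenascin-R and phosphacan. The sum of 9 astrocyte markers, of which Slc1a2 was the most frequent, had a rescaled median of 1.60 in pLSOs (0 to 293), 1.64 in LOCs (0 to 163) and 4.05 in negative controls (0 to 32.6). Over the pLSOs its sum of TPM correlated with Ncan at 0.40, with Bcan at 0.22 and with Hapln1 at 0.08. Precursor markers were scarce, with 1 or more of 6 in 9 pLSOs, 8 LOCs and 0 negative controls, and Pdgfra in 1 pLSO and 0 LOCs. Vascular markers, of which Pecam1 was the most frequent, had a median sum of 0 in each class. The part of these cells in the Bcan, Ncan, Tnr and Ptprz1 values was not tested.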

How the data were processed

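Single neurons of the mouse LSO were recorded, aspirated and amplified with a modified Smart-seq2 protocol, and libraries were made with Nextera XT. Per the labels and the study's methods, the authors processed the reads with Trim Galore 0.4.2, STAR on mm10, featureCounts with Gencode vM2 and Picard 1.115. The deposited values are TPM rounded to whole numbers and are treated as a score, because the length by which the authors divided was not that of the gene for most rows checked. The TPM were not renormalised. Reads were estimated from the step between low values. It was sought in the values above 0 of early rows, from 7 values in NC3 to 228 in cell_45. A step was accepted only where at least 95% of these values were whole multiples within 0.5 TPM or 0.0003 of the value. On that basis 96 of 96 libraries gave a step. The average share of 99.96% whole multiples follows in part from this rule and is no check on later rows. Rescaled values were computed from the estimated reads with the full Gencode vM21 length and an equal total per library. For rows after 1676 the length by which the authors divided was inferred from the ordered vM21 lengths less 80 bases.

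Groups follow the firing pattern in the labels, with 6 neurons and 2 negative controls left out. Each library is 1 neuron, so no doublets were removed. A gene was compared where 5% of neurons held 1 TPM or more. The rules were a share difference of 25 percentage points and a difference of 1 in mean log2(TPM + 1) (pseudocount 1). With no animal named, no test was run. Intervals are exact Clopper-Pearson at 95%, the limit of a count of 0 is 3 counts, and both cover counting error only, since the reads carry no molecular identifiers. The genes named are the 10 members, pathway genes past a rule, the most frequent gene of a list without one, and the genes with the highest correlation. Members and lists were chosen with earlier results of these data known. Alternatives changed the libraries, detection at 10 TPM, the rescaled values, the pseudocount (0.1 and 10) and the depth (2000 detected genes). Detection at 20 reads was chosen after seeing the data. Promoters of 8 of 10 members came from RefSeq. The result of 1 list of glial markers is not reported here. Scripts were tested on simulated data. The work used matplotlib 3.10.9, scikit-learn 1.9.0, SciPy 1.17.1, NumPy 2.4.6 and pandas 2.3.3 under Python 3.11.15.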

Additional observations from a re-analysis of the deposited data

Results flagged for a closer look

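Among the 8 negative controls, a different library stood far from the others for each of 3 genes. Hapln4 was at 5443 TPM in NC1, where the next was at 496 TPM. Ncan was at 18002 TPM in NC3, where the next was at 2535 TPM. Tnr was at 38 TPM in NC4 and at 0 in the other 7. These values stood for about 24.0 reads of Hapln4, 2.00 reads of Ncan and 0.993 reads of Tnr. The flag used a limit for 8 normally distributed values, whereas most values here were 0. How often chance alone gives such a flag is therefore not known.

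Libraries outside the comparisons held 4 members above the highest control used. Bcan was at 971 TPM in the left-out neuron cell_54, and no control used held it. Hapln1 was at 10 TPM in the left-out control NC6, and Ptprz1 was at 15 TPM in the left-out neuron cell_39, where every control used was at 0. Spp1 was at 782 TPM in the left-out control NC5, and the highest control used was at 229 TPM.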

How the results depend on the processing

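The number of members past the share rule between pLSOs and LOCs was 2 under every alternative run. Of 200 member differences under alternatives 197 stayed on the same side of their rule (25 percentage points or 1 on the log2 scale). Has3 was at 0 in every setting, so its differences among these could not move. The sign changed in 8 share differences that were under the rule both before and after. Among them, the share of Ncan in pLSOs minus LOCs was -1.10 points and became 0.55 at 10 TPM, 5.22 on the rescaled values and 1.10 at 20 reads. Onset minus Sustained, Spp1 went from -4.88 to 8.43 points at 10 TPM, Bcan from 7.54 to -0.76 with all labelled libraries and Acan from 3.10 to -1.18 in neurons with 2000 or more detected genes. For neurons minus negative controls, Ncan went from 10 to -3.75 points on the rescaled values and Tnr from 1.25 to -3.75 at 10 TPM. With detection at 20 reads, chosen after seeing the data, 0 members instead of 1 passed between Onset and Sustained neurons, and the Hapln4 difference was -22.4 points. At this setting neurons minus negative controls also crossed the rule for Spp1, from 13.75 to 33.75 points. Hapln1 fell below it there, from 38.75 to 22.5 points. The number of pathway genes past the log2 rule, 8 with a pseudocount of 1, was 15 with 0.1 and 2 with 10, and the number past the share rule was 2 instead of 6 with detection at 10 TPM. No paired analysis was possible because the labels give no replicate number that groups share. The depth of the negative controls limits the comparison with them. Among the 10 members, 1 read stood for up to 17.3 TPM (Ncan) in the median neuron. In negative control NC7 about 1.00 read of Ncan stood for 2535 TPM.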
